A study of Mus musculus with 2 samples.

Results

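Fatty acid synthesis, desaturation and elongation were followed through 10 genes, Acaca, Fasn, Scd1, Scd2, Fads1, Fads2, Elovl1, Elovl5, Elovl6 and Elovl7, of the 31053 genes in the deposited tables, across OPCs, NFOs and oligodendrocytes of the uninjured and the injured optic nerve. The 10 genes were selected on measured values, since earlier results of the same 2 libraries were known when the list was drawn up, and every level and ratio of theirs below is therefore a description with no test. In oligodendrocytes, all 9 genes that could be compared were lower in the injured library, from 0.0303 times the uninjured level for Fads1 to 0.710 times for Elovl6. In NFOs, Elovl7 stood at 2.75 times and Scd2 at 1.34 times the uninjured level, against a median of 1.15 over all genes tested. The Elovl7 ratio rests on 7 uninjured UMIs and on 72 injured ones, 46 of them in 8 barcodes. Averaged over barcodes it was 1.10. The other 8 genes were below the uninjured level in NFOs, with few UMIs each.

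The scRNA-seq experiment compared cells of the injury site 2 weeks after optic nerve crush (ONC) with cells of uninjured optic nerves, each a pool of 5 nerves in 1 library. The mice were wildtype, of the 129S1/SvlmJ strain, with males and females pooled, 10 weeks old at collection and 8 weeks old at ONC by the study's methods, although both samples are labelled as aged 56 days and as crushed. The uninjured sample was taken from its title, and the deposited values also carry a condition, control or crush, for their barcodes. OPCs are the dividing precursors of the lineage, NFOs the newly formed oligodendrocytes that follow them, and oligodendrocytes the myelinating cells. The study reports that ONC killed most oligodendrocytes of the injury site. Lineage cells there 2 weeks later were, by its account, mostly born after ONC, with immature stages among them. A difference between the libraries can therefore reflect other cells as well as a change within cells, and these cannot be told apart here. Levels are UMIs (counted RNA molecules) summed over the barcodes of a type, per 1000000 UMIs of that type (CPM), and a ratio is the injured CPM over the uninjured CPM. The 95% intervals, in parentheses after a value, express the error of counting alone and are exact Poisson for CPM, exact conditional for ratios and exact binomial (Clopper-Pearson) for shares. With 1 library per condition no difference has a replicate check.

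Fatty acids are built from acetyl-CoA in the cytosol. Acetyl-CoA carboxylase (Acaca) makes malonyl-CoA, which sets the rate of the pathway, and fatty acid synthase (Fasn) joins malonyl units into palmitate. Palmitate is lengthened at the endoplasmic reticulum by elongases (the Elovl genes), made monounsaturated by stearoyl-CoA desaturases (Scd1 and Scd2), and the polyunsaturated chains that come from the diet are desaturated by Fads1 and Fads2. Myelin is a lipid-rich membrane with many very long, saturated and monounsaturated chains, and oligodendrocytes are known to make much of this lipid themselves. Many genes of the pathway are targets of the sterol regulatory element-binding proteins, encoded by Srebf1 and Srebf2.

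The promoters of Fasn, Elovl5 and Elovl7 are shown because they hold matches to motifs of factors that act on lipid genes (an NF-Y box read as CCAAT, an E-box read as CACGTG, and the looser sterol element read as CACNCCAC, all on both strands). The sequences are the 250 bases before the annotated start of RefSeq on GRCm38.p6, from 5′ to 3′ on the strand of the gene, with the matches in capitals. Fasn lies at chr11:120824548-120824797 on the minus strand, Elovl5 at chr9:77917115-77917364 on the plus strand and Elovl7 at chr13:108214154-108214403 on the plus strand.
Fasn promoter: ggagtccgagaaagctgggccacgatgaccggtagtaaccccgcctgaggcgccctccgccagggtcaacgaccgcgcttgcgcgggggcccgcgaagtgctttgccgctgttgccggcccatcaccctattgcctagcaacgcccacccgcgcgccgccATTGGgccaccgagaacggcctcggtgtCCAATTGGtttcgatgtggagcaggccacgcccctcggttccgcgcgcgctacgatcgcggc
Elovl5 promoter: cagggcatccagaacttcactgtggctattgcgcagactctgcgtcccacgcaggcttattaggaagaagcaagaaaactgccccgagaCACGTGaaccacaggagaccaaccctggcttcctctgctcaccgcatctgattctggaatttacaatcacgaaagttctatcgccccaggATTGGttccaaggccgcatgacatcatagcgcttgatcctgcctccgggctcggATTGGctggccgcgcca
Elovl7 promoter: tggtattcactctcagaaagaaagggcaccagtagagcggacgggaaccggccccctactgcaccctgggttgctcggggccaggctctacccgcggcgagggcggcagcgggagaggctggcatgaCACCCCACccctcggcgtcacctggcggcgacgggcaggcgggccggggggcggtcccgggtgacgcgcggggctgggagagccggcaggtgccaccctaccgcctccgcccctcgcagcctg

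In Fasn the capitals mark 3 matches to the NF-Y box, read as ATTGG on the printed strand where they lie on the other one. A pair of them overlaps in a single stretch that matches on both strands, at 62 to 55 bases before the start. In Elovl5 they mark an E-box at 161 to 156 bases and 2 NF-Y boxes, the nearer of them at 17 to 13 bases before the start. A further NF-Y box lay in the Elovl1 promoter, at 35 to 31 bases. In Elovl7 the capitals mark the looser sterol element at 123 to 116 bases before the start. The windows searched ran from 250 bases before to 50 bases after the start and covered 8 windows of 7 of the 10 genes. The sterol regulatory element read as TCACNCCAC was in 0 of these 8 windows, against 1.24% of all 32851 windows. The looser letters were in 1 of 8, against 6.24%, and the longer letters hold the looser ones. The NF-Y box was in 3 of 8 windows, against 37.4%, the E-box in 1 of 8, against 7.15%, and a GC box read as GGGCGG in 4 of 8, against 35.7%. The shares in these windows rest on few genes, and a match is only a match of letters.

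On GRCm38, the desaturase genes lie in 2 pairs on chromosome 19. Scd2 (ENSMUSG00000025203) lies at chr19:44293674-44306864 on the plus strand and Scd1 (ENSMUSG00000037071) at chr19:44394455-44407879 on the minus strand, with 87590 bases between them. Fads2 (ENSMUSG00000024665) lies at chr19:10062765-10101746 on the minus strand and Fads1 (ENSMUSG00000010663) at chr19:10182888-10196877 on the plus strand, with 81141 bases between them. The transcripts of Scd1 and Scd2 share a stretch of 147 identical bases, and those of Scd1 and Scd3 one of 185, so that some reads could not be told apart between these genes, and the Scd1 and Scd2 levels are uncertain to that extent. The longest such stretch was 17 bases for Fads1 with Fads2 and 54 bases for Fads2 with Fads3, and no pair among the 4 Elovl genes described shared more than 21 bases. Elovl1 overlaps Cdc20 on the opposite strand, which had 15 UMIs in the uninjured and 4 UMIs in the injured library.

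The lineage held 959 barcodes with 4414834 UMIs in the uninjured library and 410 barcodes with 2771797 UMIs in the injured library, and 0 barcode sequences were shared between them. Uninjured barcodes were 58 OPCs, 44 NFOs and 857 oligodendrocytes, and injured barcodes were 17 OPCs, 100 NFOs and 293 oligodendrocytes. The summed level of 8 OPC markers was highest in OPCs (15280 and 13691 CPM in the uninjured and injured library), that of 8 NFO markers in NFOs (6077 and 9277 CPM) and that of 10 markers of mature oligodendrocytes in oligodendrocytes (70802 and 64461 CPM). The depth of the oligodendrocytes differed between the libraries, with a median of 3060 UMIs per uninjured barcode and 1268 UMIs per injured barcode. The nuclear RNA Malat1 made up less than 0.5% of UMIs in 5.60% of the oligodendrocyte barcodes without injury and 45.4% of those with it. Barcodes at or above that share are called Malat1-rich here, and those below it Malat1-poor. Of the NFO barcodes, 63.6% in the uninjured and 77% in the injured library were Malat1-poor, at median depths of 1259.5 and 1258.5 UMIs. Summed UMIs of 12 macrophage and microglia markers were at 26.5 CPM in uninjured and 337 CPM in injured oligodendrocytes, with 11 of 12 and 12 of 12 genes detected. In NFOs this list was at 21.2 CPM (2 of 12 genes, with 10 at 0, among them Ptprc, Csf1r and C1qa) and 813 CPM (12 of 12 genes).

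Through the uninjured lineage, 8 of the 10 genes had their highest level in oligodendrocytes, and Fads1 and Fads2 had theirs in NFOs. Of the 9 genes that reached 50 UMIs over these types, 3 were at least 2-fold higher in oligodendrocytes than in NFOs (24.0% of 7651 genes were) and 1 was at least 2-fold lower (17.7% of genes were). In the injured library, 3 of 8 genes were at least 2-fold higher in oligodendrocytes (19.4% of 6563 genes were). The members' median ratio of oligodendrocytes to NFOs was 1.81 in the uninjured and 1.79 in the injured library, against 1.0 over all genes tested in each. Fads1, with 30 summed UMIs in the injured library, is not in the second of these medians. Most NFO barcodes were Malat1-poor and most oligodendrocyte barcodes were not, so these ratios compare unlike kinds of barcodes as well as types. The part of the barcode kind in them was not tested.

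**Figure D1:**
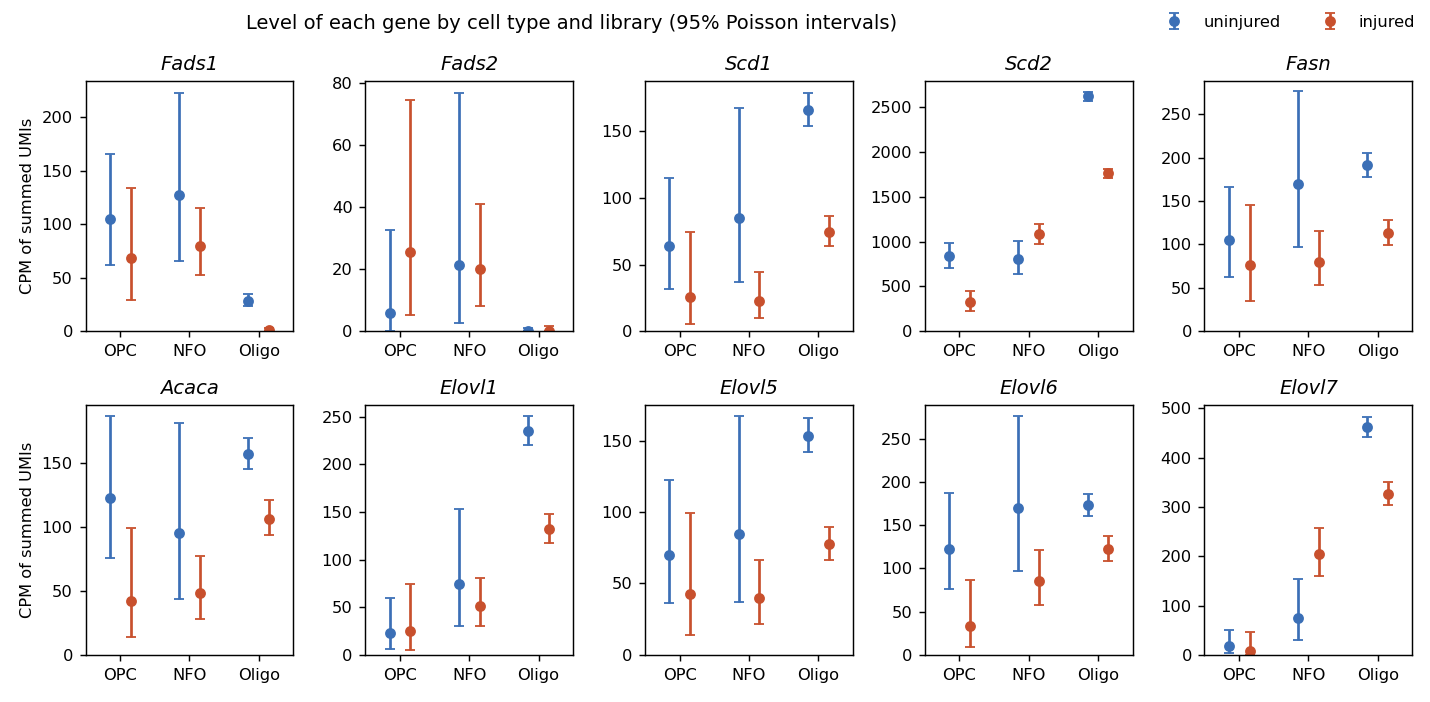
Level of each of the 10 genes in CPM of summed UMIs (vertical axes, each from 0) in OPCs, NFOs and oligodendrocytes of the uninjured (blue) and injured (red) library, with 95% Poisson intervals. The injured oligodendrocyte level is below the uninjured one in 9 panels, and Fads2 has no UMI in oligodendrocytes of either library.

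The genes of synthesis itself were present in all 3 types. Fasn was at 105 CPM (62.3 to 166) in uninjured OPCs, 170.0 CPM (97.2 to 276) in NFOs and 191 CPM (178 to 205) in oligodendrocytes. In the injured library it was at 76.5 CPM (35.0 to 145) in OPCs, 79.6 CPM (52.9 to 115) in NFOs and 113 CPM (99.6 to 128) in oligodendrocytes. The order of the types was the same in both libraries, but NFOs did not differ from oligodendrocytes beyond their intervals in either. Injured oligodendrocytes held 260 UMIs of Fasn and uninjured ones 793, a ratio of 0.591 (0.512 to 0.681). Acaca was at 123 CPM (75.9 to 187) in uninjured OPCs, 95.6 CPM (43.7 to 182) in NFOs and 157 CPM (145 to 170) in oligodendrocytes, levels that overlap in their intervals. The injured library had Acaca at 42.5 CPM (13.8 to 99.2) in OPCs, 48.3 CPM (28.1 to 77.4) in NFOs and 107 CPM (93.9 to 121) in oligodendrocytes, where only the oligodendrocytes stood apart from the NFOs, at 2.21 times their level (1.35 to 3.86). The ratio of injured to uninjured oligodendrocytes was 0.680 (0.585 to 0.789) for Acaca, from 246 and 652 UMIs. It lay nearer to 1 within barcodes of like Malat1 share and depth, as given below.

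The stearoyl-CoA desaturases make oleate-type chains. Scd2, the isoform known from brain and myelinating glia, was at 835 CPM (703 to 983) in uninjured OPCs, 807 CPM (636 to 1011) in NFOs and 2621 CPM (2572 to 2671) in oligodendrocytes. Oligodendrocytes thus stood above the other types, which did not differ from each other beyond their intervals. The injured library had Scd2 at 323 CPM (229 to 444) in OPCs, 1080 CPM (974 to 1194) in NFOs and 1761 CPM (1707 to 1816) in oligodendrocytes, and the 3 types stood apart. Its ratio in oligodendrocytes was 0.672 (0.648 to 0.697). Scd2 supplied 62.6% of the UMIs of the 10 genes in uninjured and 64.9% in injured oligodendrocytes, so that a sum over the 10 genes follows Scd2. With every barcode thinned to 500 UMIs, Scd2 was found in 69.0% (65.7 to 72.1) of 838 uninjured and 41.6% (35.9 to 47.5) of 293 injured oligodendrocytes, and in 32.1% (20.3 to 46.0) of 56 uninjured OPCs. Without thinning the shares were 92.1%, 65.5% and 67.2%, at median depths of 3060, 1268 and 2290 UMIs.

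Scd1, the isoform best known from liver and fat, was at 64.2 CPM (32.1 to 115) in uninjured OPCs, 85.0 CPM (36.7 to 167) in NFOs and 166 CPM (154 to 179) in oligodendrocytes. In the injured library it was at 25.5 CPM (5.26 to 74.6) in OPCs, 22.7 CPM (9.82 to 44.8) in NFOs and 74.7 CPM (64.0 to 86.7) in oligodendrocytes. Its ratio in oligodendrocytes was 0.449 (0.378 to 0.532), from 172 and 690 UMIs. With every barcode thinned to 500 UMIs it was 1.01 (0.600 to 1.65), while the mean CPM over barcodes gave 0.749. In the 133 injured Malat1-poor oligodendrocyte barcodes, Scd1 was at 187 CPM (24 UMIs) and in the 48 uninjured ones at 114 CPM (8 UMIs), a ratio of 1.64 (0.714 to 4.23) that does not show a difference. The lower Scd1 level was thus not seen in these barcodes, in which the macrophage and microglia list was at 2630 CPM in the injured and 99.8 CPM in the uninjured library. The astrocyte list of 8 genes was at 6235 CPM (7 of 8 genes) in these injured barcodes and 1070 CPM (5 of 8) in the uninjured ones, and over all oligodendrocytes at 1420 and 826 CPM. The part of these lists in the Scd1 level was not tested.

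Fads1 and Fads2, the front-end desaturases of polyunsaturated chains, had the opposite order of types. Fads1 was at 105 CPM (62.3 to 166) in uninjured OPCs, 127 CPM (65.9 to 223) in NFOs and 28.7 CPM (23.8 to 34.3) in oligodendrocytes. OPCs and NFOs did not differ beyond their intervals, and oligodendrocytes lay below both, at 0.225 times the NFO level (0.124 to 0.448). The injured library had Fads1 at 68.0 CPM (29.4 to 134) in OPCs, 79.6 CPM (52.9 to 115) in NFOs and 0.869 CPM (0.105 to 3.14) in oligodendrocytes. Injured oligodendrocytes held 2 UMIs of Fads1 and uninjured ones 119, a ratio of 0.0303 (0.00363 to 0.112). Both injured UMIs were in Malat1-poor barcodes. In Malat1-rich oligodendrocytes there were 117 UMIs in the uninjured and 0 UMIs in the injured library, at least 20.8-fold lower when 3 UMIs over the class are taken as the floor, with an exact upper limit of 0.0601 for the ratio. Fads1 was found in 89 of 857 uninjured oligodendrocytes (10.4%, 8.42 to 12.6) and in 2 of 293 injured ones (0.683%, 0.0828 to 2.44). At 500 UMIs per barcode the shares were 1.55% (0.829 to 2.64) and 0.683% (0.0828 to 2.44), a difference that was not detectable at that depth. In OPCs the unthinned share was 24.1% (13.9 to 37.2) at a median of 2290 UMIs in the uninjured and 41.2% (18.4 to 67.1) at 4120 UMIs in the injured library. The thinned OPC shares were 1.79% (1 of 56 barcodes) and 0% (0 of 17), so that no order can be read from them.

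Fads2 was detected in OPCs and NFOs and not in oligodendrocytes. It had 1 UMI (5.84 CPM, 0.148 to 32.5) in uninjured and 3 UMIs (25.5 CPM, 5.26 to 74.6) in injured OPCs. NFOs held 2 UMIs (21.2 CPM, 2.57 to 76.8) in the uninjured and 7 UMIs (19.9 CPM, 8.00 to 41.0) in the injured library. In oligodendrocytes 0 of 857 uninjured and 0 of 293 injured barcodes held a UMI, which allows shares of up to 0.350% and 1.02% with 3 barcodes as the floor, and exact binomial limits of 0.430% and 1.25%. Against the floor of 3 UMIs over the class, injured oligodendrocytes were at least 15.3-fold lower than the measured level of injured NFOs, and the exact interval of that ratio, which also takes in the counting error of the 7 UMIs, ran up to 0.106. With so few UMIs the libraries could not be compared for Fads2.

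Of the elongases, Elovl7 and Elovl1 stood above NFOs and OPCs in uninjured oligodendrocytes, while Elovl5 and Elovl6 did not differ from NFOs beyond their intervals. Elovl7, which lengthens saturated very long chains, was at 17.5 CPM (3.61 to 51.2) in uninjured OPCs, 74.4 CPM (29.9 to 153) in NFOs and 462 CPM (442 to 483) in oligodendrocytes. In the injured library it was at 8.50 CPM (0.215 to 47.4) in OPCs, 205 CPM (160 to 258) in NFOs and 326 CPM (303 to 350) in oligodendrocytes. Taken whole, oligodendrocytes stood above NFOs in both libraries, by 6.22 times (3.01 to 15.5) in the uninjured and 1.59 times (1.25 to 2.06) in the injured one. In Malat1-poor oligodendrocytes alone Elovl7 was at 214 CPM (120 to 353) in the uninjured library. In the injured library it was at 70.2 CPM (32.1 to 133) in such barcodes, below the injured NFOs taken whole. These barcodes had at most 3389 UMIs each, while 8 injured NFO barcodes with at least 8000 UMIs held 46 of the 72 Elovl7 UMIs of injured NFOs. The comparison is thus between unlike barcodes, and the part of depth in it was not tested. The Elovl7 ratio of injured to uninjured was 0.706 (0.648 to 0.768) in oligodendrocytes. At 500 UMIs per barcode Elovl7 was found in 19.3% (16.7 to 22.2) of uninjured and 5.80% (3.42 to 9.13) of injured oligodendrocytes and in 0% (0 to 6.38) of uninjured OPCs. The unthinned shares were 65.0%, 41.0% and 5.17%.

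Elovl1, which makes very long saturated chains for sphingolipids, was at 23.3 CPM (6.36 to 59.8) in uninjured OPCs, 74.4 CPM (29.9 to 153) in NFOs and 235 CPM (220 to 250) in oligodendrocytes, with oligodendrocytes above both. In the injured library it was at 25.5 CPM (5.26 to 74.6), 51.2 CPM (30.3 to 80.9) and 132 CPM (118 to 148) in the same order, and the ratio in oligodendrocytes was 0.562 (0.492 to 0.640). Elovl6, which turns palmitate into stearate, was nearly level, with 123 CPM (75.9 to 187) in uninjured OPCs, 170.0 CPM (97.2 to 276) in NFOs and 173 CPM (161 to 186) in oligodendrocytes. After ONC Elovl6 was at 34.0 CPM (9.27 to 87.1), 85.3 CPM (57.5 to 122) and 123 CPM (109 to 138), and its ratio in oligodendrocytes was 0.710 (0.617 to 0.816). Elovl5, which lengthens polyunsaturated and monounsaturated chains, was at 70.0 CPM (36.2 to 122) in uninjured OPCs, 85.0 CPM (36.7 to 167) in NFOs and 154 CPM (142 to 166) in oligodendrocytes. After ONC Elovl5 was at 42.5 CPM (13.8 to 99.2), 39.8 CPM (21.8 to 66.8) and 77.3 CPM (66.4 to 89.5), and its ratio in oligodendrocytes was 0.504 (0.424 to 0.596).

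Read together for the injury, the oligodendrocyte ratios of the 10 genes formed a narrow band with 1 gene far below it. All 9 genes with at least 50 summed UMIs were below 1 (45.8% of 8591 genes were), and all 9 intervals lay below 1. Fads1 and Scd1 were at least 2-fold lower (4.06% of genes were), Elovl5 at 0.504 was just short of that size, and 0 of 9 were at least 2-fold higher (5.98% of genes were). The median ratio of the 9 genes was 0.591, against 1.03 over all genes tested, of which the middle 90% ran from 0.524 to 2.12. Within this band the shares of genes with a lower ratio ran from 2.96% for Scd1 to 15.3% for Elovl6. Nothing about the list follows from these backgrounds, since the ratios were known when the genes were picked. An oligodendrocyte barcode held a median of 4 of the 10 genes in the uninjured and 2 in the injured library, and at 500 UMIs per barcode a mean of 1.36 and 0.741 genes.

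**Figure D2:**
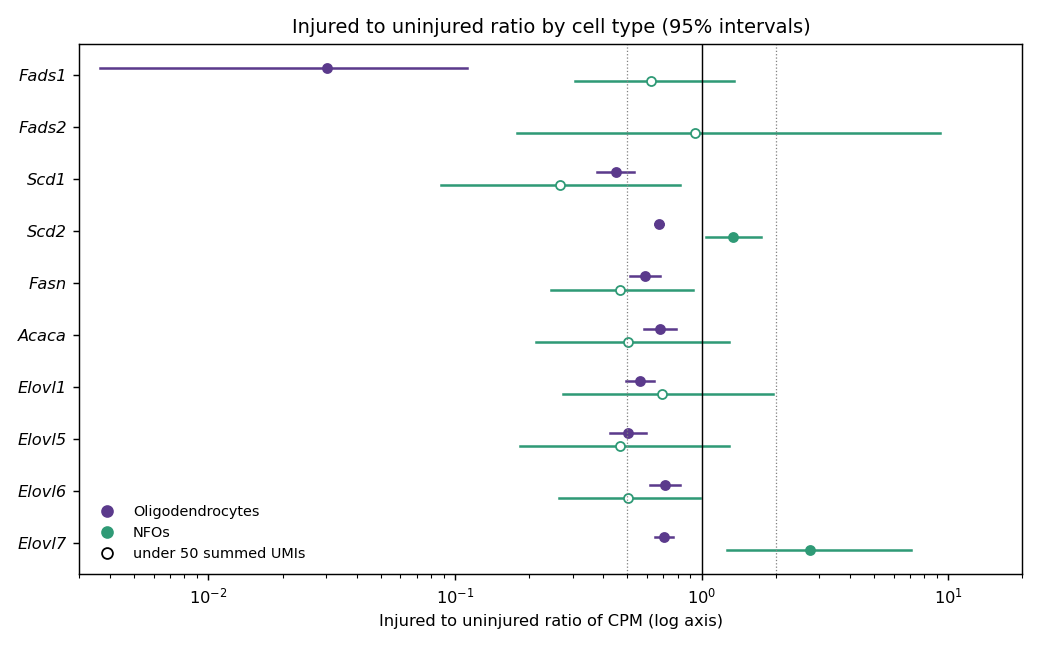
Injured to uninjured ratio of CPM (horizontal log axis) for each gene in oligodendrocytes (purple) and NFOs (green), with 95% exact intervals, open points for under 50 summed UMIs, a solid line at 1 and dotted lines at 2-fold. All 9 oligodendrocyte points lie left of 1, while Scd2 (1.34) and Elovl7 (2.75) lie right of 1 in NFOs.

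The oligodendrocytes of the 2 libraries differed in depth and Malat1 share, so the ratios were read again within barcodes of each kind. In deep Malat1-rich barcodes (at least 8000 UMIs, 203 uninjured and 84 injured, median depths of 11054 and 22473 UMIs), all 9 genes were again below 1 (39.3% of genes were) and 2 were at least 2-fold lower (3.13% of 7631 genes were), with a median of 0.617 against 1.10 over all genes. There Scd1 was at 0.442 (0.360 to 0.540), Elovl5 at 0.525 (0.432 to 0.635), Elovl1 at 0.591 (0.511 to 0.683) and Fasn at 0.617 (0.526 to 0.722). Acaca came nearest to 1 in these barcodes, at 0.822 (0.684 to 0.985). Malat1-rich barcodes of middle depth, which takes in all under 8000 UMIs, were 606 uninjured and 76 injured, with median depths of 2326.5 and 1574.5 UMIs. There 9 of 9 genes were below 1 (53.3% of genes were) and 3 at least 2-fold lower (15.1% of 5378 genes were). The median of the 9 genes was 0.527, against 0.956 over all genes. Acaca at 0.957 (0.656 to 1.36) and Elovl6 at 0.705 (0.424 to 1.11) had intervals that held 1 there, and Scd2 was at 0.883 (0.801 to 0.972). Fads1 had 62 and 55 UMIs in the uninjured barcodes of middle depth and of the deep kind and 0 UMIs in the injured ones, at least 2.18-fold and 15.0-fold lower against the floor of 3 UMIs, with exact upper limits of 0.581 and 0.0845 for the ratios, and both medians stay as given with Fads1 at these bounds. In both libraries Scd2 and Acaca had a higher CPM in barcodes of middle depth than in deep ones, as Acaca was with 211 and 123 CPM in the uninjured library and 202 and 101 CPM in the injured one. Deep barcodes held 2001123 of 2302349 injured and 2437704 of 4149375 uninjured oligodendrocyte UMIs. The whole Acaca ratio, 0.680, lay below those of deep, middle-depth and Malat1-poor barcodes (0.822, 0.957 and 1.09). The last rests on 8 and 4 UMIs. For Scd2, all Malat1-rich barcodes gave 0.686, below both depths (0.726 and 0.883). The part of this depth mix in the ratios was not tested.

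The Malat1-poor barcodes (48 uninjured and 133 injured) held 181 UMIs of the 10 genes in the injured library, and Scd2 was the 1 gene with at least 50 summed UMIs, at a ratio of 0.543 (0.420 to 0.702). Fasn had 2 UMIs there in the injured library and 11 UMIs in the uninjured one, a ratio of 0.0995 (0.0107 to 0.456), and Elovl1 had 3 and 17 UMIs, a ratio of 0.0966 (0.0181 to 0.334). The macrophage and microglia list was at 104 CPM in injured deep and 1335 CPM in injured Malat1-rich barcodes of middle depth, against 24.6 and 26.2 CPM in the uninjured ones. In the oligodendrocyte barcodes without a UMI of that list (786 uninjured and 45 injured), all 9 genes were below 1 (51.6% of 7389 genes were), with a median of 0.566 against 0.985 over all genes.

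**Figure D3:**
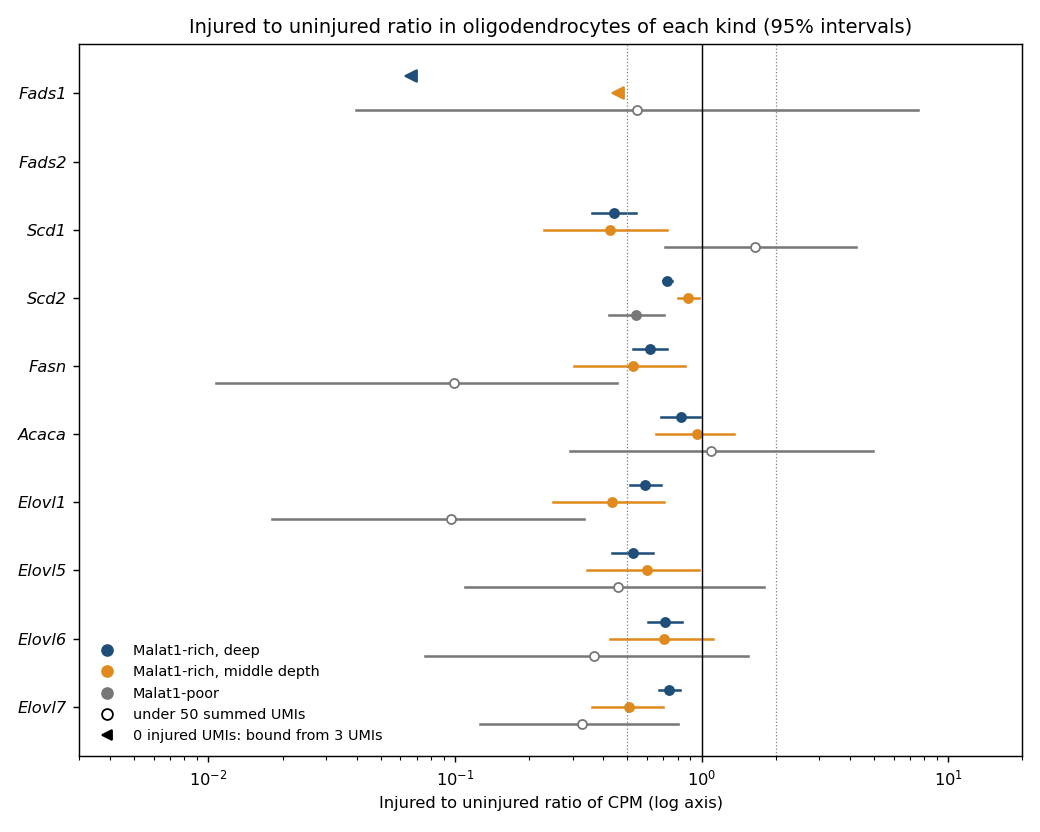
Injured to uninjured ratio of CPM (horizontal log axis) in deep Malat1-rich (blue), middle-depth Malat1-rich (orange) and Malat1-poor (grey) oligodendrocyte barcodes, with 95% exact intervals and open points for under 50 summed UMIs. Arrowheads mark Fads1 with 0 injured UMIs, placed at the bound that 3 UMIs give, and Scd1 in Malat1-poor barcodes lies right of 1 (1.64) with an interval that spans 1.

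In NFOs the injured library held 351851 UMIs and the uninjured one 94130, and just Elovl7 and Scd2 reached 50 summed UMIs. Elovl7 had 72 UMIs in the injured and 7 UMIs in the uninjured library, a ratio of 2.75 (1.27 to 7.09), and it was found in 25 of 100 and 4 of 44 barcodes. Scd2 had 380 and 76 UMIs, a ratio of 1.34 (1.04 to 1.73), and was found in 65 of 100 and 27 of 44 barcodes. At least 2-fold higher levels were seen for 13.3% of 1695 genes in NFOs, at least 2-fold lower ones for 4.01%, and the median over all genes was 1.15. Divided by that median, Elovl7 was at 2.39 (1.10 to 6.16) and Scd2 at 1.16 (0.907 to 1.51), an interval that holds 1. A gene that reached 50 UMIs did so mainly through the injured library, so the other 8 genes are given regardless of that minimum. They lay between 0.268 for Scd1 and 0.936 for Fads2, and the intervals of Scd1 (0.0875 to 0.818), Fasn (0.245 to 0.926) and Elovl6 (0.265 to 0.985) did not hold 1. The median over all 10 genes was 0.565, which has no like background, since the all-gene median of 1.15 covers just genes with at least 50 summed UMIs.

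The 2 NFO pools also differed in makeup. The 8 injured NFO barcodes with at least 8000 UMIs held 55.0% of the injured NFO UMIs and 46 of the 72 UMIs of Elovl7, while the 2 such uninjured barcodes held 25.4% of the UMIs and 0 of the 7 UMIs of Elovl7. In NFO barcodes under 8000 UMIs the Elovl7 ratio was 1.65 (0.697 to 4.50), and with the stricter filter on barcodes (500 or more genes, mitochondrial share not above 10%, which kept 19 uninjured and 71 injured) it was 6.59 (1.76 to 55.5). Averaged over barcodes instead of summed, the Elovl7 ratio was 1.10, the Scd2 ratio 1.55 and the Fasn ratio 0.159. The summed level of the 10 markers of mature oligodendrocytes was 10326 CPM in uninjured and 16973 CPM in injured NFOs, and that of the 8 OPC markers 6162 and 3771 CPM. The part of this difference in the NFO ratios was not tested.

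In OPCs, with 17 injured barcodes, levels alone are given. Scd2 stood at 835 CPM in the uninjured and 323 CPM in the injured library and Acaca at 123 and 42.5 CPM, while every gene other than Scd2 had under 10 UMIs in the injured OPCs.

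The other genes around the pathway were taken from a list of 72, of which 53 had at least 50 summed UMIs in oligodendrocytes. Of these 53, 10 were at least 2-fold lower, 2 at least 2-fold higher and 41 in between, with a median of 0.944, against 4.06% and 5.98% of all genes past 2-fold in these directions and the median of 1.03. Of the 6 genes that supply acetyl-CoA and NADPH for synthesis, 3 were at least 2-fold lower and 1 at least 2-fold higher. Acly, which cleaves citrate to acetyl-CoA, was at 126 CPM in uninjured and 27.4 CPM in injured oligodendrocytes, a ratio of 0.218 (0.165 to 0.283), and Slc25a1, the mitochondrial citrate carrier, was at 142 and 28.2 CPM, a ratio of 0.199 (0.152 to 0.257). The malic enzyme genes were higher in the injured library, with Me1, whose cytosolic enzyme makes NADPH, at 117 and 256 CPM, a ratio of 2.18 (1.93 to 2.46), and the mitochondrial relative Me2 at 33.3 and 64.3 CPM, a ratio of 1.93 (1.52 to 2.46).

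Among the regulators of the pathway, Srebf1 and Srebf2 lay on opposite sides of 1. Insig1, which holds the sterol regulatory element-binding proteins in the endoplasmic reticulum, was at 231 CPM in uninjured and 23.9 CPM in injured oligodendrocytes, a ratio of 0.103 (0.0773 to 0.136). Srebf2, the member of that family best known for cholesterol synthesis, was at 213 and 54.3 CPM, a ratio of 0.255 (0.210 to 0.308). Srebf1, the member best known for fatty acid synthesis, was at 43.4 and 74.7 CPM, a ratio of 1.72 (1.39 to 2.13). In deep Malat1-rich barcodes Srebf1 was at 2.06 (1.57 to 2.73) and Srebf2 at 0.302 (0.242 to 0.373). Over the 12 regulators tested, 4 were at least 2-fold lower (4.06% of all genes were) and 0 at least 2-fold higher (5.98% of genes were). Their median was 0.801, against 1.03 over all genes.

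Downstream of synthesis the list was mixed. Fa2h, which hydroxylates fatty acids for myelin galactolipids, was at 796 CPM in uninjured and 235 CPM in injured oligodendrocytes, a ratio of 0.295 (0.269 to 0.323). Dgat2, which makes triacylglycerol, was at 16.4 and 59.1 CPM, a ratio of 3.60 (2.67 to 4.90), and it stood at 4.69 (3.20 to 7.06) in deep Malat1-rich barcodes. Fabp5, a fatty acid-binding protein, was at 1061 and 2071 CPM, a ratio of 1.95 (1.87 to 2.04), and Acbd3, an acyl-CoA-binding protein of the Golgi, was at 42.9 and 83.8 CPM, a ratio of 1.95 (1.59 to 2.41). Of the 8 oxidation genes tested 0 passed 2-fold in either direction (4.06% of all genes did so downward and 5.98% upward), and their median was 1.10. The 5 partners of the elongation cycle had a median of 0.756, from 0.510 for Tecr to 1.41 for Hacd3, with 0 past 2-fold.

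In NFOs 16 of the 72 genes were tested. Of these, 2 were at least 2-fold higher (13.3% of 1695 genes were) and 2 at least 2-fold lower (4.01% of genes were). The median of the 16 was 1.03, against 1.15 over all genes. Fabp5 was at 606 CPM in uninjured and 1575 CPM in injured NFOs, a ratio of 2.60 (1.98 to 3.48), and Hsd17b12, the reductase of the elongation cycle, was at 138 and 281 CPM, a ratio of 2.04 (1.14 to 3.96). The oxidation subunits Hadha and Hadhb were at 1.75 (0.923 to 3.66) and 1.70 (0.896 to 3.57), and Hacd1, a dehydratase of the elongation cycle, at 1.64 (0.733 to 4.33), all with intervals that held 1. Insig1 was at 0.420 (0.236 to 0.765), Fabp7, a fatty acid-binding protein of precursors, at 0.435 (0.304 to 0.630), Tecr, of the elongation cycle, at 0.570 (0.418 to 0.783) and Dbi, an acyl-CoA-binding protein, at 0.788 (0.693 to 0.898). Acly (11 and 8 UMIs in uninjured and injured NFOs), Srebf1 (3 and 36 UMIs) and Srebf2 (14 and 23 UMIs) were under 50 summed UMIs.

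**Figure D4:**
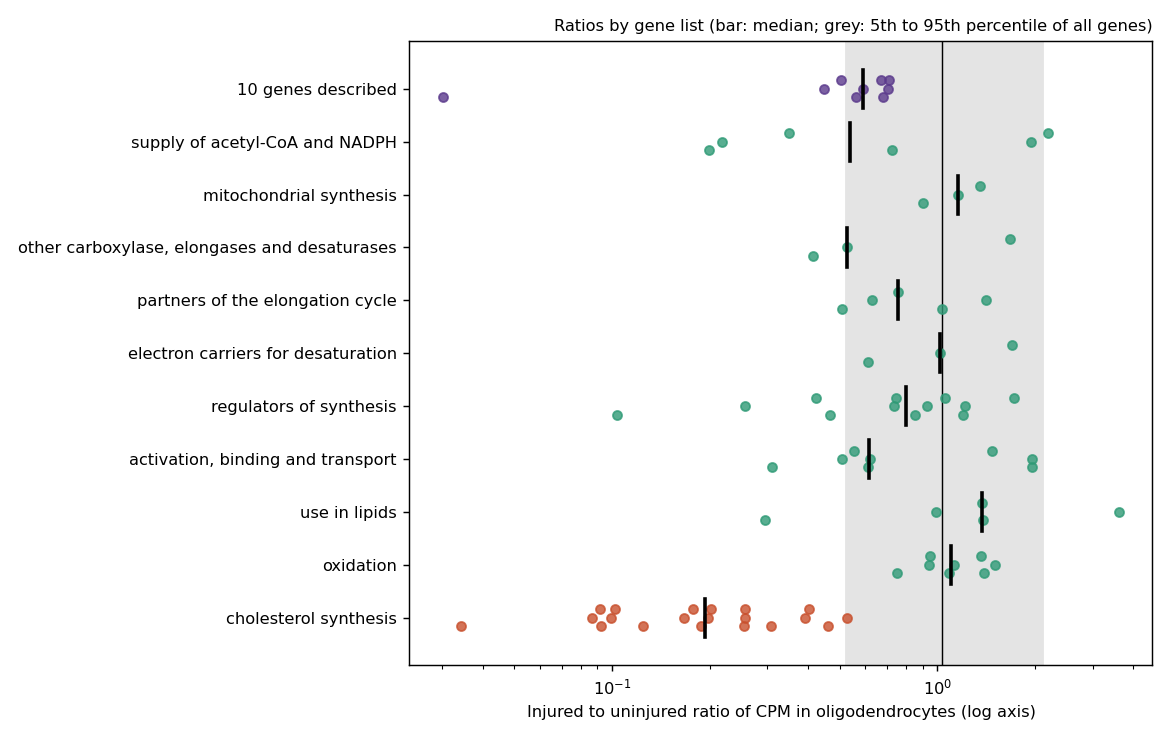
Injured to uninjured ratio of CPM in oligodendrocytes (horizontal log axis) for every gene with at least 50 summed UMIs, by gene list, with the median of each list as a black bar, the median of all genes (1.03) as a line and their 5th to 95th percentiles (0.524 to 2.12) in grey. The 10 genes described (purple, 9 points) have a median of 0.591 and the cholesterol synthesis genes (red, 20 points) a median of 0.193.

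Cholesterol synthesis, the most closely related pathway, lay further down in the same oligodendrocytes. Of its 21 genes 20 were tested, and 19 were at least 2-fold lower (4.06% of all genes were). At least 2-fold higher were 0 (5.98% of genes were), and the median was 0.193, against 1.03 over all genes. Hmgcs1, of the first steps of synthesis, was at 1499 CPM in uninjured and 137 CPM in injured oligodendrocytes, a ratio of 0.0916 (0.0815 to 0.103), while Hsd17b7 at 0.404 (0.306 to 0.526), Mvk at 0.462 (0.377 to 0.563) and Ebp at 0.528 (0.444 to 0.625) lay nearest to 1. Scd1 and Elovl5 had ratios within the range of these genes, Fads1 lay below it, and the other 6 members compared lay above it. In NFOs 5 of 6 cholesterol genes tested were at least 2-fold lower (4.01% of 1695 genes were), with a median of 0.281 against 1.15 over all genes.

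The genes whose levels ran most like the sum of the 10 genes over 9 groups (OPCs, NFOs and the 3 kinds of oligodendrocytes in each library, without the 17 injured OPCs) were Enpp2, Mtf1, Tmem63a, Ankub1 and Fcho1, with Pearson correlations of log2(CPM + 10) between 0.959 and 0.974 among 5313 genes. The 9 points share libraries and depth, and the sum is mostly Scd2, whose own correlation with it was 0.974. Of the single genes, Elovl1 (0.879), Elovl5 (0.859) and Elovl7 (0.843) followed the sum, Acaca (0.645), Fasn (0.609), Elovl6 (0.549) and Scd1 (0.403) did so less, and Fads1 (-0.49) and Fads2 (-0.58) ran against it.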

How the data were processed

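Cells of pooled optic nerves were profiled with 10x Genomics 3′ scRNA-seq, 1 library per condition. Per the submitters' processing notes and the study's methods, reads were processed with bcl2fastq 2.17.1.14, Cell Ranger 1.3 and Seurat 4.0.3 on mm10, and barcodes with over 20% mitochondrial UMIs, under 200 genes or over 150000 UMIs were removed. The values deposited by the authors are natural log values, ln(1 + 10000 × UMIs / total UMIs), called normalized expression (NE), with the authors' annotation of cell types, which was used unchanged. Whole UMIs were recovered from these values in 100% of barcodes (tolerance 0.001) and summed per library and type. Cells are not replicates, so no test was made, and p-values are not given. Genes were compared from 50 summed UMIs, with 2-fold as the size rule. Barcodes at 0.5% Malat1 and 8000 UMIs were split, and thinning was to 500 UMIs. A floor of 3 UMIs over a class stands for a count of 0.

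The 10 genes and all lists were chosen with earlier results of these data known, and the grouping of the 72 other genes by role was made after their values were seen. All 10 genes are named, and of the other fatty acid genes the 5 lowest and 5 highest ratios in each of the 2 types plus Srebf1, Srebf2, Insig1 and Acly, of the cholesterol genes the 3 lowest and 3 highest, and the 5 genes most like the sum. Results for 3 genes that this rule names are not reported here. Tecr and Hacd3 were named in oligodendrocytes as the ends of their group, after their values were seen. Gene names were matched to GENCODE vM21 (30506 of 31053). RefSeq promoter windows matched 7 members, and Fads1, Scd1 and Scd2 had no entry. Scrublet in scanpy 1.11.5 marked 11 uninjured and 0 injured oligodendrocyte barcodes and 1 and 3 NFO barcodes, which were kept. The calculation was run on simulated Poisson counts. A 4-fold change was set for 189 of the genes tested in oligodendrocytes and 132 of those in NFOs, and no change for the rest. In oligodendrocytes (8553 genes) 96.0% of intervals held the true ratio, and in NFOs (1674 genes) 95.3% did. The intervals assume Poisson counts and the simulation had no spread between barcodes, so these shares check the calculation and not the error in the data. Analyses ran in Python 3.11.15 with scipy 1.17.1, pandas 2.3.3 and numpy 2.4.6. Alternatives were other barcode filters, scalings, UMI minimums and boundaries, and averaging over barcodes. The separate reading of Malat1-rich barcodes by depth, a boundary of 4000 UMIs and the NFO ratios of all members were chosen after seeing the data.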

Additional observations from a re-analysis of the deposited data

Results flagged for a closer look

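Scd2 and Elovl7 lay on opposite sides of 1 in the 2 cell types that were compared between the libraries. The injured to uninjured ratio of Scd2 was 1.34 in NFOs and 0.672 in oligodendrocytes, and that of Elovl7 was 2.75 in NFOs and 0.706 in oligodendrocytes. The NFO ratio over the oligodendrocyte ratio was 1.99 (1.55 to 2.55) for Scd2 and 3.90 (1.79 to 8.51) for Elovl7, with intervals for counting error only. The Elovl7 ratio in NFOs was 1.10 when averaged over barcodes and 1.65 (0.697 to 4.50) in barcodes under 8000 UMIs, and 8 injured barcodes held 46 of its 72 UMIs. With 1 library per condition, the difference between the types was not tested.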

How the results depend on the processing

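The count of members at least 2-fold lower in injured oligodendrocytes, 2 as reported, was 6 in barcodes under 8000 UMIs, 6 with the mean CPM over barcodes, 5 after thinning to 500 UMIs and 1 with a minimum of 200 summed UMIs, which leaves out Fads1. Over all genes, 4.06% were as low as reported and 15.6%, 22.6%, 21.2% and 3.27% under these settings. The median ratio, 0.591 as reported, was 0.455, 0.411 and 0.444 under the first 3 of these, against all-gene medians of 1.03 as reported and 0.853, 0.771 and 0.827. Scd1 reversed to 1.01 after thinning. In NFOs, the 1 member at least 2-fold higher (Elovl7) became 0 in barcodes under 8000 UMIs, in barcodes without a macrophage UMI, with the mean CPM over barcodes, after thinning and with the minimum of 200 UMIs. The Elovl7 ratio itself ran from 1.10 with the mean CPM over barcodes to 6.59 with the stricter filter. Taking all members with a UMI, an alternative chosen after seeing the data, gave 3 members at least 2-fold lower in NFOs, 0 as reported, and a median of 0.565 in place of 2.04, because the 50-UMI minimum had left 2 genes. Otherwise the cause was not tested. No share or median over all genes was taken without that minimum, so this count and this median stand without a background. Over 126 alternative values of single members in oligodendrocytes, 125 were below 1. Over all genes, 45.8% were below 1 as reported, 43.9% in Malat1-rich barcodes, 63.7% in barcodes under 8000 UMIs, 68.3% with the mean CPM over barcodes and 61.9% after thinning. The 126 values come from 14 overlapping settings per gene on the same 2 libraries, for genes picked with their ratios known, and are not independent checks. No paired analysis was possible because each condition has 1 library with no replicate number. Depth limits most members in NFOs and OPCs. Fads2 had 0 UMIs in oligodendrocytes, with exact upper limits of 0.889 CPM in the uninjured and 1.60 CPM in the injured library, so the libraries could not be compared for it there.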
